A study of Mus musculus with 6 samples.

Results

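The genes described here are 59 transcription factors and stress-response genes of the AP-1, ATF, C/EBP, MAF, KLF, NF-kB, HIF, STAT, NFAT, ID and TSC22 families, with the immediate early and growth arrest genes named for fast induction. They were taken by symbol from the deposited tables, which list 7384 genes. Of 115 protein-coding symbols in the mouse annotation that fit the same naming pattern, 59 are in the tables; the others, among them Atf3, Fosb, Jund, Egr2, Klf2, Klf6, Nfe2l2 and Nfkbia, were not analysed here. Vascular smooth muscle cells cultured from mouse aorta were compared after 48 h of Sirt6 knockdown by small interfering RNA, called siSirt6 (3 samples), with control cells, called Control (3 samples). What the controls received is not stated in the labels, nor are the strain, age and number of mice. Nothing says that the samples came from separate cultures or animals, so p-values measure only the spread between these samples, which may be technical. RNA was sequenced as stranded mRNA libraries. Levels are given as normalised read counts, which are whole reads divided by a single factor per library. The listed genes held between 14458847 and 15526399 reads per library.

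AP-1 is a dimer of a FOS and a JUN protein that binds DNA through a basic region and a leucine zipper (a bZIP domain). ATF, C/EBP, MAF, NRF and BACH proteins share this fold and pair with one another in changing combinations. KLF proteins bind GC-rich promoters through zinc fingers, and KLF4 is known in smooth muscle for repressing contractile genes. NF-kB, HIF, STAT and NFAT proteins carry signals of inflammation, low oxygen, cytokines and calcium to the genome. ID proteins have no DNA-binding region and act by holding E proteins away from DNA. SIRT6 is a chromatin-bound deacylase that has been described as a co-repressor at genes driven by c-JUN, NF-kB and HIF-1.

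Sirt6 itself stood at 251.7, 257.0 and 270.4 normalised counts in Control and at 44.5, 59.8 and 63.5 after knockdown, a fall to 0.215 of the Control level. Of the smooth muscle markers examined, 9 of 11 tested rose and 2 fell (9 and 1 once a trend on transcript length and GC was removed), and Myocd and Des were not analysed here. Tagln, Myh11, Cnn1 and Mylk were low for such markers, at 112.0, 90.9, 179.8 and 66.5 normalised counts per kb of transcript in Control. The others ran from 388.9 for Lmod1 to 28626 for Acta2. Myh11 rose by log2 0.30, and by 0.51 with that trend removed. All 8 tested endothelial markers rose: their summed normalised count lay between 1000 and 1155 in Control and between 1823 and 1970 in siSirt6, and Tek and Erg were not analysed here. Of the 8, Cldn5 stood at 9.8, 18.5 and 8.7 in Control and at 98.9, 67.0 and 55.2 in siSirt6. It met the filter on low values (10 normalised counts in 3 or more libraries) only with its siSirt6 libraries, so its direction leans on that filter. Endothelial cells also express several of the genes below, such as Epas1, Klf4, Id1 and Id3, and the part of these cells in their values was not tested. The 3 tested macrophage markers rose slightly (summed 1777 to 1822 in Control, 1978 to 2018 in siSirt6; Ptprc, Csf1r and Adgre1 not analysed here); with that trend removed none was called higher and Lyz2, the most abundant, was called lower (log2 -0.16), and with libraries scaled to their listed totals none was called. Adventitial fibroblast markers were divided, 4 higher and 5 lower of 9 tested, 2 and 6 with the trend removed (summed 100047 to 100726 in Control, 86239 to 87627 in siSirt6), and Dcn was not analysed here. Per kb in Control these markers ran from 58.6 for Pi16 to 27177 for Gsn. Gsn held most of their summed count, with a mean of 72100 in Control and 57433 in siSirt6. The fall of that sum therefore mainly reflects Gsn. In bulk RNA, fewer cells of a type and less RNA per cell cannot be told apart.

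All 59 genes passed the filter on low values, and their levels in single libraries ran from 160.6 to 10768.5. After Sirt6 knockdown 30 rose and 29 fell (limma, adjusted p under 0.05 over all 7179 tested genes), which is 50.8% and 49.2% of them; among all tested genes 50.5% rose and 49.3% fell, and 99.8% were called in either direction. The Control and siSirt6 ranges did not overlap for any of the 59, as for 96.8% of tested genes. With p-values adjusted over all 55536 annotated genes, 27 of the 59 were higher and 28 lower, beside 90.3% of tested genes called in either direction. The tables hold almost only genes that differ, so these counts say nothing particular about the families. Sizes were modest: the median absolute log2 fold change was 0.329, beside 0.366 for all tested genes, and 2 of the 59 passed 2-fold (Ier3 and Epas1) where 7.72% of tested genes did. Direction differed from gene to gene within most families, as it did over all tested genes. All 5 AP-1 genes rose and the 3 HIF and 3 NFAT genes in the tables fell, while ATF, C/EBP, MAF, KLF, NF-kB, STAT, ID and TSC22 genes went both ways. With the trend on length and GC removed no ID gene was called higher, nor any KLF or STAT gene with libraries scaled to listed totals.

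**Figure D1:**
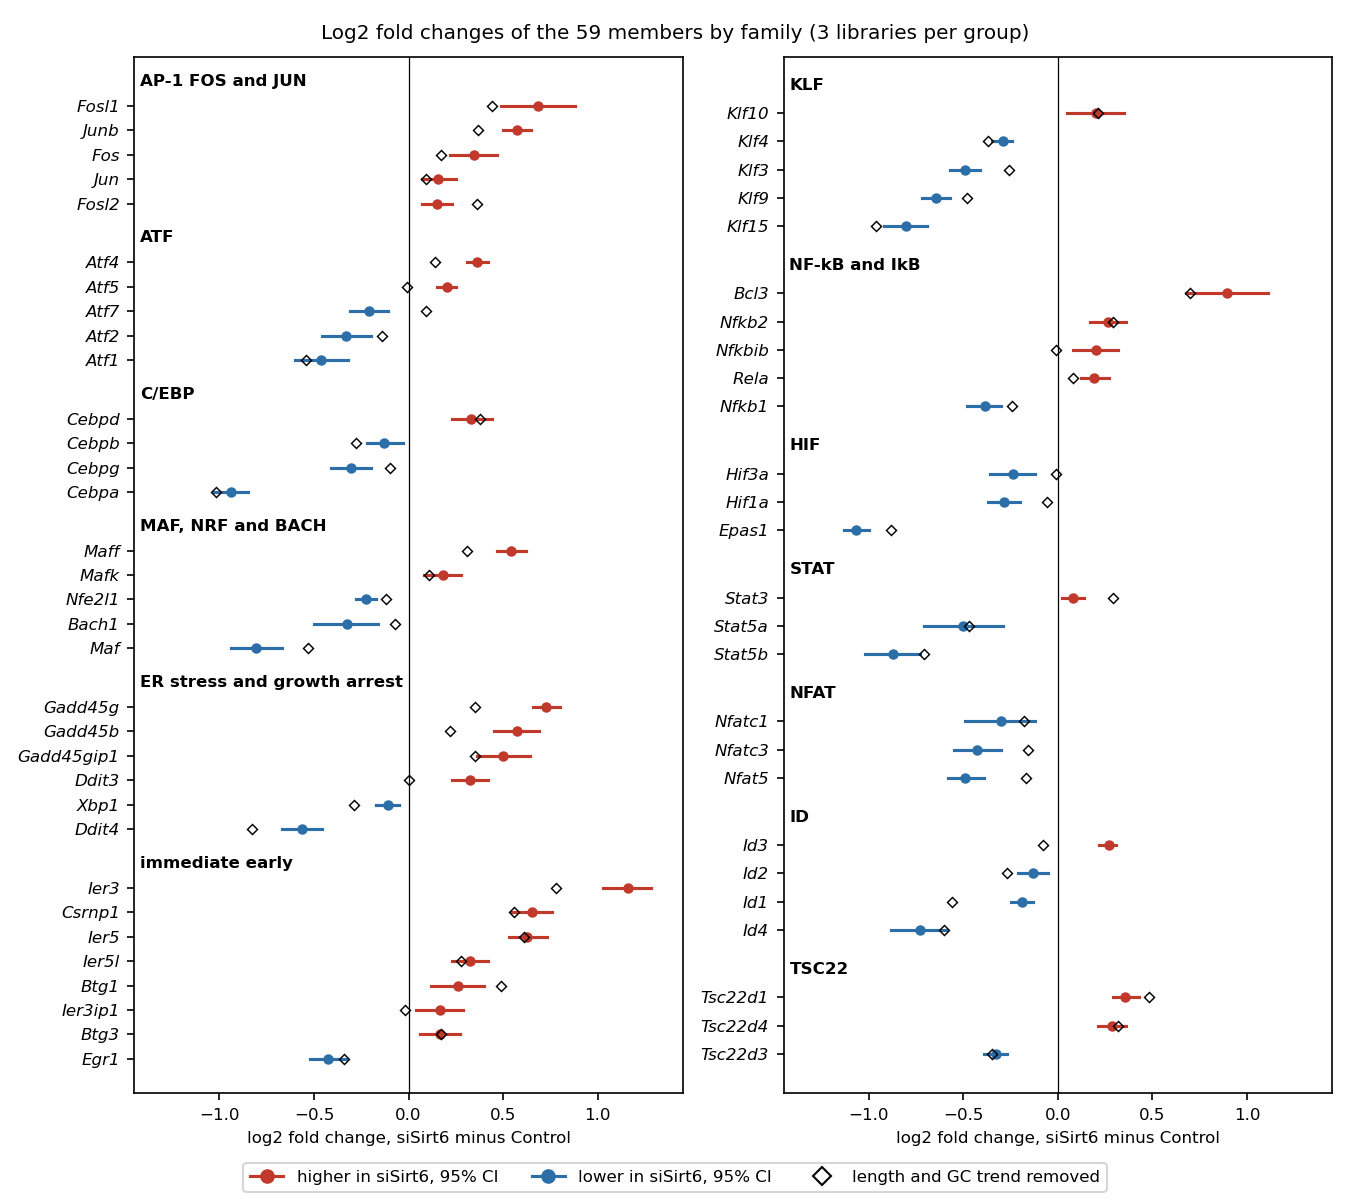
Log2 fold change (siSirt6 minus Control, x axis) of each of the 59 genes by family, with 95% confidence intervals from limma (filled circles) and the value after removal of the length and GC trend (open diamonds). Values ran from -1.07 for Epas1 to 1.16 for Ier3, and all families but AP-1, HIF and NFAT have filled circles on either side of 0.

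Fold changes moved with transcript length. Among the 30 genes with longest transcripts of 969 to 3044 nt, 20 rose and 10 fell; among the 29 with transcripts of 3097 to 13443 nt, 10 rose and 19 fell. Across the 59 genes Spearman's rho between log2 fold change and length was -0.51, and across all tested genes -0.43; genes share their libraries and are not independent replicates. When a smooth trend on length and GC was taken out of each library, 53 of the 59 kept their direction and 47 also kept their call. Among all tested genes 37.3% were called higher and 36.8% lower after this removal, beside 24 and 24 of the 59. Where this removal ended a call, turned a direction or moved a value by over 1.5 times, the value without the trend is given with the gene. Medians of gene lists are given on all 3 scales, beside medians over all tested genes of 0.085 as deposited, -0.005 with the trend removed and -0.034 under the listed totals described next. The part of transcript length in the other values was not tested. Scaling each library to the total of its listed genes (listed totals below) moved the median of all tested genes from 0.085 to -0.034, and so moved small changes by over 1.5 times while keeping their call: among rises, Fos became 0.23, Cebpd 0.21, Ddit3 0.21, Ier5l 0.21, Id3 0.15, Tsc22d4 0.17 and Atf5 0.09. Among falls, Atf7 became -0.33, Cebpb -0.25, Hif3a -0.36, Id1 -0.31, Id2 -0.25, Nfe2l1 -0.35 and Xbp1 -0.23.

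**Figure D2:**
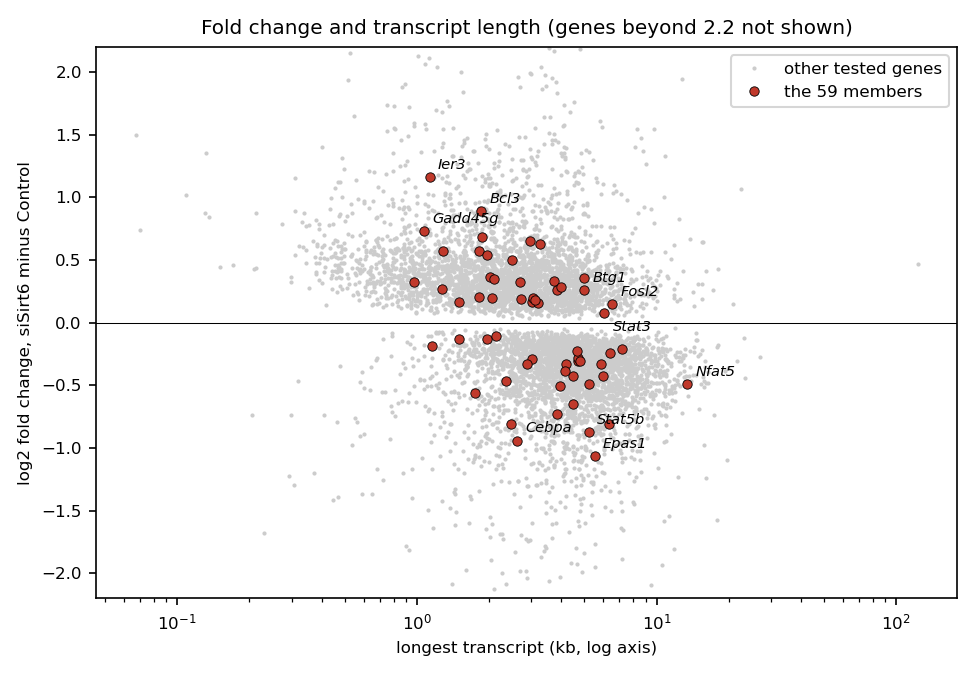
Log2 fold change (siSirt6 minus Control, y axis) against the length of the longest annotated transcript (x axis, log scale) for tested genes (grey) and the 59 members (red). Short members such as Ier3, Bcl3 and Gadd45g lie above 0, and long members such as Nfat5 and Epas1 below it, with Fosl2, Stat3 and Btg1 as long genes above 0; genes beyond 2.2 either way are not drawn.

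All 5 AP-1 genes rose. Junb, which encodes a JUN protein often opposing c-JUN, stood at 1504, 1507 and 1545 normalised counts in Control and at 2360.3, 2209 and 2208 after knockdown. Its groups were far apart, and it rose 1.49-fold, from 1519 ± 23.1 to 2259 ± 87.5 (SD, n = 3), which on the log2 scale is 0.57 ± 0.038 SE (adjusted p = 2.92e-15; 0.37 with the length and GC trend removed). Fosl1, which encodes FRA-1, stood at 197.1, 179.1 and 209.6 in Control against 313.5, 343.3 and 288.3 in siSirt6. It rose 1.61-fold (log2 0.69 ± 0.097 SE; 0.44 with the trend removed), but 57.2% of its exon length lies opposite exons of the antisense gene Ccdc85b, which was not analysed here, and the strand setting of the counting is not given. Fos, the founding member of the family, stood at 491.8, 558.9 and 545.7 in Control against 676.4, 674.2 and 676.4 in siSirt6. The 3 siSirt6 values of Fos lay within 3 counts of each other while the Control values spread more widely, and Fos rose 1.27-fold (log2 0.35 ± 0.063 SE; 0.17 with the trend removed). Jun stood at 1129, 1177 and 1088 in Control against 1284, 1244 and 1253 in siSirt6, a rise of 1.11-fold that was lost with the trend removed (log2 0.09, adjusted p = 0.0525) and with libraries scaled to their listed totals (0.04). Fosl2, which encodes FRA-2, rose 1.11-fold from 1349 ± 17 to 1496 ± 18.7 (SD, n = 3), and its log2 fold change went from 0.15 to 0.36 with the trend removed and to 0.03, not called, under listed totals.

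Ranks, sums and parts of a family, here and below, cover only its genes among the 59, so Fosb and Jund are left out. Per kb of transcript, Junb was the most abundant of the AP-1 genes analysed in every library, at 839.5 normalised counts per kb in Control and 1249 in siSirt6. It was followed by Jun, Fos, Fosl2 and Fosl1 in Control. The summed AP-1 level per kb went from 1758 ± 21.1 to 2362 ± 55.2 (SD, n = 3), and the part of it held by Junb from 47.7% ± 0.57 to 52.8% ± 0.91. Jun's part went from 20.2% ± 0.82 to 16.7% ± 0.23. The libraries of the groups did not overlap in any of these 3 quantities.

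Genes that AP-1 is known to regulate were mostly higher: of 18 listed, 14 were tested, 12 rose and 2 fell, with a median log2 fold change of 0.67. Among the rises, Mmp9 stood at 2.0, 1.9 and 1.9 in Control and at 47.5, 42.3 and 32.3 in siSirt6. It passed the filter on low values through siSirt6 alone, so its direction was set by that filter. The median was 0.42 with the trend removed and 0.55 under listed totals, with 11 higher and 2 lower, and 10 higher and 3 lower. The inhibitor of metalloproteases Timp1 rose 1.66-fold (log2 0.73; 0.32 with the trend removed) and the chromatin protein gene Hmga1 1.83-fold. Cyclin D1 (Ccnd1), which drives entry into the cell cycle, fell to 0.536 of its Control level. The other fall was that of Plau, which encodes urokinase, to 0.514; genes named here and below as the few exceptions of a list were picked after their values were seen.

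**Figure D3:**
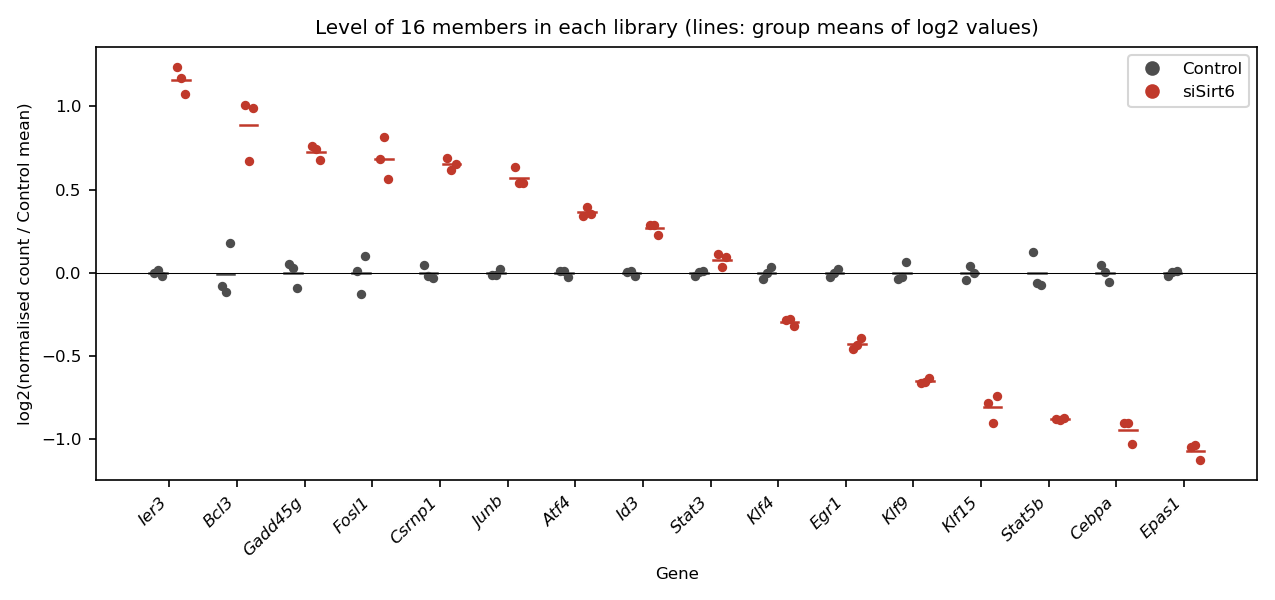
Level of 16 of the genes in each library as log2 of the normalised count over the Control mean (y axis), with Control in grey and siSirt6 in red; points are libraries and short lines group means. The siSirt6 libraries of Ier3 lie above 1 and those of Epas1 below -1, and in each of the 16 genes the groups are separate, most narrowly in Stat3.

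Immediate early genes are those that cells switch on within minutes of a stimulus without new protein synthesis. Of 8 genes grouped under this name 7 were higher, beside 50.5% of all tested genes, and Egr1 was lower. With the trend removed 6 were called higher, beside 37.3% of all tested genes, and under listed totals 4. Ier3 (chromosome 17, 35821684 to 35822923, GRCm38), which encodes a small protein induced by stress and growth factors, stood at 409.8, 414.8 and 403.7 normalised counts in Control and at 966.1, 922.6 and 861.7 after knockdown. It had the largest rise of the 59 genes, 2.24-fold from 409.4 ± 5.55 to 916.8 ± 52.4 (SD, n = 3), which on the log2 scale is 1.16 ± 0.061 SE (adjusted p = 7.7e-18), and the trend removal left 0.78. Csrnp1, a nuclear protein gene first found as induced by axin, stood at 608.9, 582.2 and 577.5 in Control against 949.3, 903.0 and 927.3 in siSirt6 and rose 1.57-fold. Ier5, whose product modulates the heat shock response, stood at 918.2, 829.5 and 829.6 in Control against 1289, 1356 and 1338 in siSirt6 and rose 1.55-fold. In all 3 genes the lowest siSirt6 library stood well above the highest Control library.

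Egr1, the zinc finger factor that follows SRF and MAP kinase signals, went the other way: it stood at 1179, 1199 and 1219 in Control against 873.1, 887.6 and 914.8 in siSirt6, a fall to 0.744 of Control (log2 -0.43 ± 0.047 SE). Smaller rises were those of Ier5l, 1.25-fold from 1305 ± 72.7 to 1635 ± 111.6 (SD, n = 3), and of the antiproliferative genes Btg1 (1.2-fold) and Btg3 (1.12-fold). The log2 fold change of Btg1 went from 0.26 to 0.49 with the trend removed, and Btg1 and Btg3 lost their calls under listed totals (0.14 and 0.05). Ier3ip1, a protein of the endoplasmic reticulum that shares only part of its name with this group, rose 1.12-fold, and turned to -0.02, not called, with the trend removed; it was not called under listed totals (0.05), without siSirt6 replicate 3, with DESeq2 on 5 libraries or with adjustment over all annotated genes.

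The immediate early genes outside the 59 were evenly divided. Of 29 listed, 22 were tested, 11 rose and 11 fell, with a median log2 fold change of 0.02 (0.01 with the trend removed and -0.10 under listed totals). The MAP kinase phosphatase gene Dusp6 fell to 0.544, the RNA-binding protein gene Zfp36l2 to 0.793 and the survival gene Mcl1 to 0.757 of Control. The rises of Fos, Junb, Ier3 and Csrnp1 stood beside falls of Egr1 and Dusp6 in the same libraries.

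Promoter sequences are shown for 7 of the genes because they belong to the early and stress genes and 6 of them hold letters of the sites searched, while Ier3, with the largest rise, holds none of these exact letters. RefSeq windows (GRCm38.p6) of 300 bases, 250 before and 50 after the transcription start, were matched by symbol for 47 of the 59 genes; where a gene has several starts, the window with the most matches is printed. All run 5′ to 3′ on the gene's strand, in lower case, with capitals for the letters of the AP-1 site TGANTCA, the CRE core TGACG, the kB decamer known from the immunoglobulin kappa enhancer and the hypoxia site TACGTG on either strand. The full CRE TGACGTCA holds the CRE core on both strands.
Fos (chr12:85473640-85473939, plus strand): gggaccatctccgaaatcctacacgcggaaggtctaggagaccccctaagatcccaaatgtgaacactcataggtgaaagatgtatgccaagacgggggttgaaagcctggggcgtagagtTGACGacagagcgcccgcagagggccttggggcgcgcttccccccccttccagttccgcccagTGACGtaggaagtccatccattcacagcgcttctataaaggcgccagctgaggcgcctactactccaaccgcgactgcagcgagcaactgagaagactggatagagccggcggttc
Maff (chr15:79347270-79347569, plus strand): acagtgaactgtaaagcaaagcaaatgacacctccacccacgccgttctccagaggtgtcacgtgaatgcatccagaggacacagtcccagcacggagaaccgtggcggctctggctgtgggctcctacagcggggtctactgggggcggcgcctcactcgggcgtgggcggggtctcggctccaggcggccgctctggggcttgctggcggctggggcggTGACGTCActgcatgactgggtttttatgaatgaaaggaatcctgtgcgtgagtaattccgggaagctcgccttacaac
Csrnp1 (chr9:119982974-119983273, minus strand): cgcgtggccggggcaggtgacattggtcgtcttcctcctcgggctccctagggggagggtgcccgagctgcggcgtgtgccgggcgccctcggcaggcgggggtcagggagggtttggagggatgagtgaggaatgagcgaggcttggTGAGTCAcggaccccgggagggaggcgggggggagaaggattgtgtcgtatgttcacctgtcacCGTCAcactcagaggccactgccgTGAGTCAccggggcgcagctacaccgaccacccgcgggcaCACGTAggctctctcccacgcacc
Nfkb2 (chr19:46305445-46305744, plus strand): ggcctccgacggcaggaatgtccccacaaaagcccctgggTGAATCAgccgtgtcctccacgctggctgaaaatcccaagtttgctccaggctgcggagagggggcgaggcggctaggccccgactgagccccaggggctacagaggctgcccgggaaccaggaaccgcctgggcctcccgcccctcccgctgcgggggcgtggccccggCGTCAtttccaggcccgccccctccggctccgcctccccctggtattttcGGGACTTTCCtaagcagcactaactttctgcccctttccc
Ddit3 (chr10:127290543-127290842, plus strand): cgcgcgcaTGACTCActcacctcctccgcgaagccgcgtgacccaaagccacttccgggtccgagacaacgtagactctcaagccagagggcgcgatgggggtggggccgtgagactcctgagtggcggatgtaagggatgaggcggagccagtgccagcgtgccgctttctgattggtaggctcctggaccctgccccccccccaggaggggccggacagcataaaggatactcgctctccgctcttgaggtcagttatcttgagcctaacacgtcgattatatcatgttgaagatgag
Ier3 (chr17:35821463-35821762, plus strand): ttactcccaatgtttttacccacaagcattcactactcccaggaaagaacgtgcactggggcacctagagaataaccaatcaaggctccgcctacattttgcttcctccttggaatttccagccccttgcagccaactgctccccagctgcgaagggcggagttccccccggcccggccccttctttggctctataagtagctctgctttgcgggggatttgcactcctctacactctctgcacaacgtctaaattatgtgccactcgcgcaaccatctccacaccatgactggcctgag
Klf9 (chr19:23140976-23141275, plus strand): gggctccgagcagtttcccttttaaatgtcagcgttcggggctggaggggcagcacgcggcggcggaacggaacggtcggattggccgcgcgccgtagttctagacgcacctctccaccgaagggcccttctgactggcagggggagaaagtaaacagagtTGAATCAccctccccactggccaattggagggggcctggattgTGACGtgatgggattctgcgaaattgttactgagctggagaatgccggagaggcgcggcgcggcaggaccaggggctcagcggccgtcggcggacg

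Fos carries the CRE core at -129 and at -66, counted from the transcription start, and Maff the full CRE from -29. The Csrnp1 window holds AP-1 letters from -102 and from -14, a CRE core from -38 and the hypoxia site from 27 bases into the transcript, and that of Ddit3 AP-1 letters from -242. Nfkb2, an NF-kB gene, has the kB site from 11 bases into the transcript, an AP-1 site from -210 and a CRE core from -40. Ier3 matches none of the searched letters in this window; a single kB decamer was searched, so other forms of the kB site were not looked for. Klf9 fell and has an AP-1 site from -89 and a CRE core from -46.

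Over the 47 genes with a window, 23 (48.9%) hold the CRE core in at least 1 window, against 35.5% of the 5431 tested genes and 23.05% of the 27025 genes with a RefSeq window. Of those 23 genes, 11 rose and 12 fell. The AP-1 site is in 4 (8.5%; 6.9% of tested and 8.97% of all genes), of which Csrnp1, Ddit3 and Nfkb2 rose and Klf9 fell. The full CRE (Maff; 2.03% of all genes), the kB site (Nfkb2; 0.17%) and the ATF4 composite site TTGCATCA (Gadd45g; 1.03%) are each in 1, the hypoxia site in 2 (Btg3 and Csrnp1; 3.67%), and the CArG box bound by SRF in 0 of the 47 (1.81% of all genes). A match describes the letters in the window and is not a measured binding site. Sites further than 250 bases before the start were not searched, so the lack of a match, as for the CArG box, covers the window only.

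Of 5 ATF genes, 2 rose and 3 fell. Atf4, the effector of the integrated stress response, stood at 3638, 3627 and 3551 normalised counts in Control and at 4574, 4744 and 4603 after knockdown. It rose 1.29-fold, a log2 fold change of 0.36 ± 0.028 SE (adjusted p = 1.12e-13), of which 0.14 was left with the trend removed. Atf5, a relative of Atf4 translated under the same conditions, stood at 5915, 6109.6 and 5948 in Control against 7024, 6902 and 6775 in siSirt6, a rise of 1.15-fold that was not called with the trend removed (log2 -0.01, adjusted p = 0.713). These were the most abundant ATF genes per kb, at 3299 for Atf5 and 1786 for Atf4 in Control, with the other 3 between 135.5 and 355.4.

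Atf1, Atf2 and Atf7 fell; ATF1 is a close relative of CREB, and ATF2 and ATF7 are factors phosphorylated by stress kinases. Atf1 stood at 909.4, 781.8 and 830.6 in Control against 663.5, 543.3 and 626.5 in siSirt6 and fell to 0.727 of Control (log2 -0.46 ± 0.068 SE). Atf2 stood at 631.3, 641.6 and 648.0 in Control against 541.9, 482.4 and 505.8 in siSirt6, a fall to 0.797 (log2 -0.33; -0.14 with the trend removed). Atf7 stood at 967.0, 960.0 and 977.4 in Control against 823.7, 840.2 and 852.3 in siSirt6; its fall to 0.866 turned to 0.09, not called, with the trend removed, and 11.7% of its exon length is shared with the gene model Gm28047. The groups were separate in each of these 3 genes, with the widest spread between libraries in Atf1.

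Of 6 growth arrest and stress genes 4 rose, beside 50.5% of all tested genes, and Ddit4 and Xbp1 were lower. With the trend removed 3 were called higher and 2 lower, beside 37.3% and 36.8% of all tested genes. Gadd45g, which encodes a partner of p38 kinase signalling induced by DNA damage and cytokines, stood at 3094, 3048 and 2798 normalised counts in Control and at 5062, 4984 and 4759 after knockdown, a rise of 1.66-fold (log2 0.73 ± 0.034 SE; 0.35 with the trend removed). Gadd45b stood at 597.2, 522.8 and 554.4 in Control against 828.6, 858.7 and 801.3 in siSirt6 and rose 1.49-fold (log2 0.57; 0.22 with the trend removed). Per kb, Gadd45g was the more abundant, at 2782 in Control against 434.7 for Gadd45b. Gadd45gip1, a mitochondrial ribosomal protein gene that binds GADD45 proteins, stood at 368.8, 361.2 and 395.0 in Control against 530.0, 517.5 and 542.2 in siSirt6 and rose 1.41-fold, a value that is uncertain while the strand setting of the counting is not given.

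Ddit4 (REDD1), an inhibitor of mTORC1 induced by hypoxia and glucocorticoids, stood at 1323, 1211 and 1173 in Control against 845.4, 788.6 and 871.1 in siSirt6. It fell to 0.676 of Control (log2 -0.56 ± 0.052 SE), with all siSirt6 libraries below all Control libraries. Ddit3 (CHOP), the factor that follows ATF4 under endoplasmic reticulum stress, rose 1.25-fold from 909.1 ± 37.3 to 1138 ± 29.4 (SD, n = 3), but its log2 fold change went from 0.32 to 0.00 (adjusted p = 0.992) with the trend removed. Xbp1, the factor of the unfolded protein response, fell to 0.927 (log2 -0.11; -0.29 with the trend removed).

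Among ATF4 and CHOP targets, 18 of 32 listed genes were tested, 13 rose and 5 fell (median log2 fold change 0.17; 0.10 with the trend removed and 0.05 under listed totals). With the trend removed 12 were higher and 4 lower, and under listed totals 8 and 5. Gdf15, a secreted stress factor, rose 1.69-fold (log2 0.76; 0.49 with the trend removed), the translation inhibitor Eif4ebp1 1.4-fold and Phgdh, which starts serine synthesis, 1.27-fold (log2 0.35; 0.11 with the trend removed, 0.23 under listed totals). The 5 falls were Trib3, Mthfd2, Slc7a1, Sesn2 and Vldlr. With the trend removed Slc7a1 went from -0.16 to 0.10, not called, and Vldlr from -0.61 to -0.28; under listed totals Slc7a1 was at -0.28. For XBP1 and ATF6 targets, 15 of 20 were tested, 11 rose and 4 fell, with small sizes (median 0.15; 0.06 with the trend removed and 0.03 under listed totals). With the trend removed 6 were higher and 5 lower, and under listed totals 6 and 4. The chaperone genes Hspa5 and Calr rose 1.22-fold and 1.24-fold (log2 0.29 and 0.31, and 0.17 and 0.19 under listed totals; Calr 0.18 with the trend removed), and Sec24d, a coat protein of export vesicles, fell to 0.753.

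C/EBP genes went both ways, with Cebpa lower and Cebpd higher. Cebpa (chromosome 7, 35119293 to 35121928), known for holding cells in a differentiated, non-dividing state, stood at 1877, 1829 and 1755 normalised counts in Control and at 974.0, 975.2 and 893.9 after knockdown. It fell to 0.521 of Control, from 1820.2 ± 61.7 to 947.7 ± 46.6 (SD, n = 3), which on the log2 scale is -0.94 ± 0.045 SE (adjusted p = 3.59e-19), and the fall was as large with the trend removed (-1.02). Cebpd, an acute phase factor, stood at 4889.5, 4858 and 4997 in Control against 6547, 6363 and 5678 in siSirt6 and rose 1.26-fold (log2 0.33 ± 0.047 SE); siSirt6 replicate 3 was the lowest of its group and still above all Control libraries. Cebpb stood at 2251, 2186 and 2256 in Control against 2143, 2147 and 1851 in siSirt6, a fall to 0.918 (log2 -0.13; -0.28 with the trend removed). Its call was lost without siSirt6 replicate 3 (log2 -0.06), the lowest library, and with adjustment over all annotated genes. Cebpg, a partner without an activation domain, stood at 985.5, 975.6 and 976.4 in Control against 818.7, 788.6 and 770.1 in siSirt6; its fall to 0.809 was lost with the trend removed (-0.10).

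The summed C/EBP level per kb went from 3697 ± 37.9 to 3544 ± 255.6, with overlapping libraries. Its makeup changed more than its sum: the part held by Cebpa went from 18.8% ± 0.67 to 10.2% ± 0.26 and that held by Cebpd from 35.5% ± 0.5 to 46.6% ± 0.35 (SD, n = 3). Exons of the antisense genes Tmem189 and Spidr cover 20.7% of Cebpb and 15.0% of Cebpd. As deposited, Tmem189 stood at log2 0.11 and Spidr at -0.23. The part of antisense reads in the values of Cebpb and Cebpd was not tested.

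**Figure D4:**
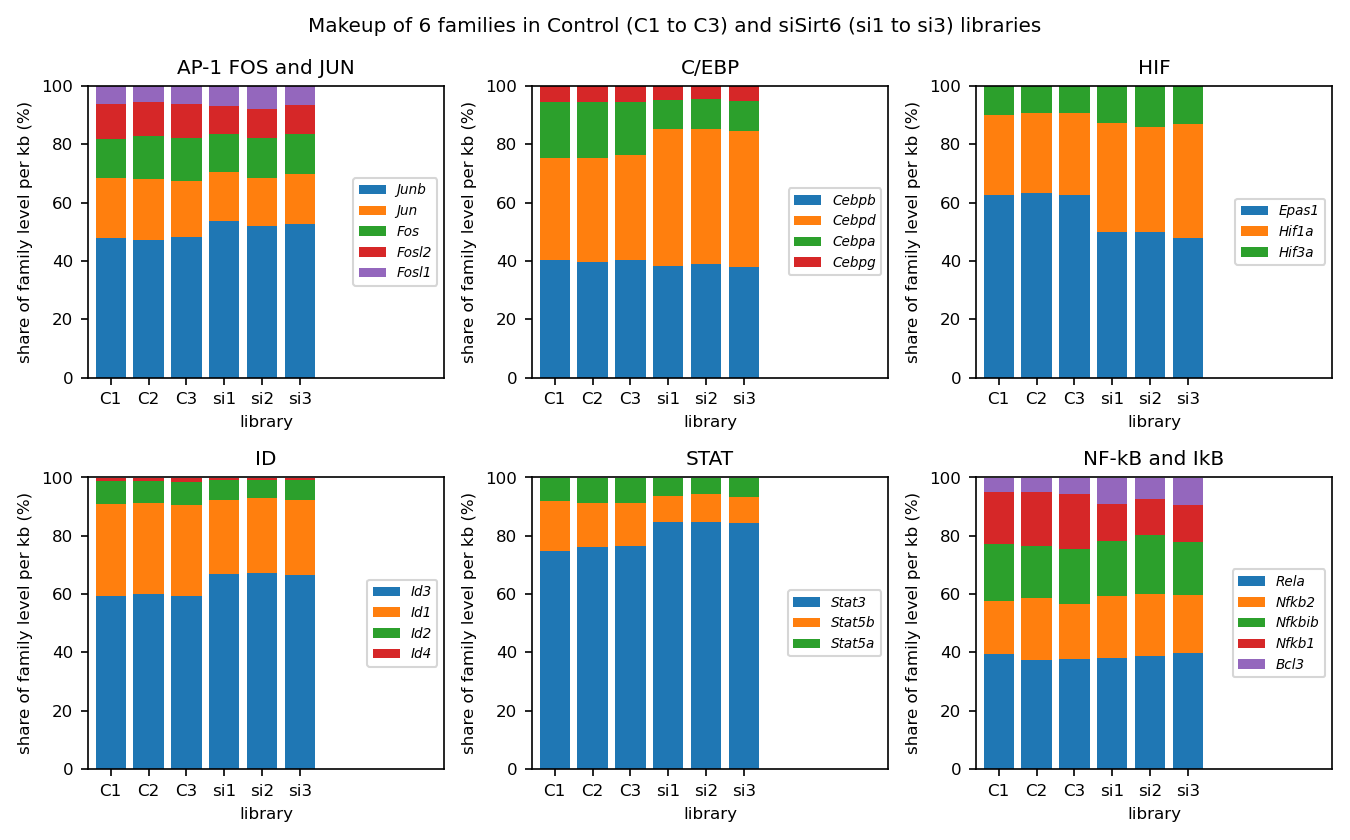
Share of each gene in the summed level per kb of transcript (y axis, %) of its family's genes among the 59. Shown are 6 families, in each Control (C1 to C3) and siSirt6 (si1 to si3) library. Cebpa shrinks and Cebpd grows within C/EBP, Epas1 shrinks from 62.8% to 49.4% of HIF, and Junb, Id3 and Stat3 stay the leading genes shown for their families.

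MAF, NRF and BACH genes were divided, 2 higher and 3 lower. The small MAF gene Maff, whose product pairs with NRF and BACH proteins and has no activation domain, stood at 1637, 1645 and 1596 normalised counts in Control and at 2445, 2372 and 2289 after knockdown. It rose 1.46-fold (log2 0.54 ± 0.036 SE, adjusted p = 5.33e-15; 0.31 with the trend removed). Maf (c-MAF), a large MAF with an activation domain, stood at 695.7, 629.0 and 727.2 in Control against 391.6, 375.2 and 404.8 in siSirt6 and fell to 0.571 of Control (log2 -0.80 ± 0.068 SE; -0.53 with the trend removed). Nfe2l1 (NRF1), which controls proteasome genes, stood at 4738, 4702 and 4587 in Control against 3982, 4001 and 4003 in siSirt6, a fall to 0.854 (log2 -0.23; -0.12 with the trend removed). Bach1, the haem-sensing repressor of Hmox1, stood at 396.2, 432.3 and 415.3 in Control against 371.8, 326.8 and 295.6 in siSirt6; it fell to 0.799, a call that was lost with the trend removed (-0.07). Mafk rose 1.13-fold from 1727 ± 127.2 to 1958 ± 102.0 (SD, n = 3), with a log2 fold change of 0.18 that was 0.11 with the trend removed and not called under listed totals (0.06).

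Genes of the NRF2 antioxidant programme, which small MAF dimers can switch on or off, were higher in 15 and lower in 4 of 19 tested (23 listed; median log2 fold change 0.38; 0.32 with the trend removed and 0.26 under listed totals). Nfe2l2, which encodes NRF2, was not analysed here. Taldo1, a transaldolase gene, rose 3.31-fold. Hmox1, which encodes haem oxygenase, rose 1.67-fold and the ferritin gene Fth1 1.3-fold, with log2 values of 0.74 and 0.38 that became 0.46 and 0.23 with the trend removed; the 4 falls were Gclc, Gsr, Gstm1 and Cat. Gstm1 went from -0.09 to -0.43 with the trend removed and -0.21 under listed totals, and Cat from -0.18 to -0.30 under listed totals. In the same libraries Maff was higher and Bach1 lower, the fall of Bach1 not being called with the trend removed (-0.07). A link of either gene to the rise of Hmox1 was not tested.

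Of 5 KLF genes, 4 fell and Klf10 rose. Klf15, a glucocorticoid-induced metabolic regulator of muscle, stood at 913.3, 966.8 and 939.7 normalised counts in Control and at 547.8, 503.1 and 563.0 after knockdown. It fell to 0.572 of Control (log2 -0.81 ± 0.058 SE, adjusted p = 3.15e-14). Klf9, another hormone-induced KLF, stood at 2289, 2309 and 2457 in Control against 1489, 1494 and 1519 in siSirt6, a fall to 0.638 (log2 -0.65 ± 0.037 SE). Klf3, a repressor that recruits CtBP, stood at 2099.8, 1981 and 2007 in Control against 1439, 1433 and 1464 in siSirt6, a fall to 0.712 (log2 -0.49; -0.26 with the trend removed). Klf4 stood at 4509, 4629 and 4753 in Control against 3802, 3824 and 3717 in siSirt6, a fall to 0.817 (log2 -0.29 ± 0.028 SE). All 4 falls held with the trend removed and under listed totals.

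Klf10, an early gene of TGF-beta signalling, rose 1.15-fold from 388.8 ± 28.2 to 446.4 ± 15.4 (SD, n = 3), a call that was lost without Control replicate 3, under listed totals (0.08), with adjustment over all annotated genes, and with edgeR and DESeq2 on 5 libraries. Klf4 was the most abundant of the 5 per kb, at 1529 in Control and 1248 in siSirt6, and its part of the summed level went from 51.9% ± 0.55 to 56.1% ± 0.7 (SD, n = 3). The sum itself went from 2948 ± 46.7 to 2223 ± 9.21, with no overlap between groups. Acta2, a contractile gene that KLF4 is known to repress, rose 1.66-fold, while Smtn and Mylk were the 2 falls of the smooth muscle list; that of Mylk (log2 -0.32) was not called with the trend removed (-0.08).

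TSC22 genes include a direct glucocorticoid target. Tsc22d3 (GILZ), which restrains AP-1 and NF-kB proteins, stood at 4114, 4067 and 4192 normalised counts in Control and at 3377, 3235 and 3241 after knockdown and fell to 0.796 of Control (log2 -0.33 ± 0.029 SE). Tsc22d1 stood at 2403, 2525 and 2484 in Control against 3240.4, 3015 and 3246 in siSirt6 and rose 1.28-fold, and Tsc22d4 stood at 1917, 1922 and 1836 in Control against 2297, 2399 and 2219.8 in siSirt6 and rose 1.22-fold. Tsc22d3 remained the most abundant per kb, at 1434 in Control and 1142 in siSirt6, and its part of the summed level went from 59.7% ± 0.71 to 48.5% ± 0.35. Other glucocorticoid-responsive genes were divided, 4 higher and 4 lower of 8 tested (9 listed; median log2 fold change 0.04; -0.03 with the trend removed and -0.08 under listed totals). Fkbp5, which encodes a chaperone of the glucocorticoid receptor, fell to 0.82 as Klf9, Klf15 and Tsc22d3 did, while the kinase gene Sgk1 rose 1.3-fold and the metallothionein gene Mt1 1.49-fold (log2 0.57; 0.20 with the trend removed).

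Of 5 NF-kB genes 4 rose, beside 50.5% of all tested genes. With the trend removed 3 were called higher, beside 37.3% of all tested genes, and under listed totals 2. Bcl3, an IkB protein that acts in the nucleus with p50 and p52, stood at 164.9, 160.6 and 197.0 normalised counts in Control and at 351.0, 277.3 and 345.5 after knockdown. It was the lowest in count and had the widest spread, and rose 1.86-fold from 174.2 ± 19.9 to 324.6 ± 41.1 (SD, n = 3), which on the log2 scale is 0.89 ± 0.11 SE (adjusted p = 4.54e-09). Nfkb2, the precursor of p52, stood at 1263, 1448 and 1361 in Control against 1694, 1652 and 1539 in siSirt6 and rose 1.2-fold (log2 0.26 ± 0.047 SE; 0.15 under listed totals); exons of antisense genes not analysed here cover 18.1% of it. Nfkb1, the precursor of p50, went the other way, at 1356, 1369.9 and 1457 in Control against 1081, 1053 and 1068 in siSirt6, a fall to 0.765 (log2 -0.39 ± 0.044 SE; -0.24 with the trend removed).

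The activating subunit gene Rela stood at 1943, 1816 and 1931 in Control against 2162, 2150.4 and 2183 in siSirt6, a rise of 1.14-fold (log2 0.19; 0.08 with the trend removed) that was not called under listed totals (0.07). Nfkbib, a cytoplasmic inhibitor, stood at 726.9, 659.2 and 736.9 in Control against 817.8, 855.6 and 765.9 in siSirt6 and rose 1.15-fold; its value was -0.01 with the trend removed and 0.08 under listed totals, neither called, and 16.4% of its exon length lies opposite exons of Sirt2 and Ccer2. Rela led the NF-kB genes analysed per kb in every library, and its part of their sum went from 38.3% ± 1.08 to 38.9% ± 0.81 (SD, n = 3), with overlapping groups. The part of Nfkb1 went from 18.4% ± 0.36 to 12.5% ± 0.15. Nfkbia, Rel and Relb were not analysed here.

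NF-kB targets were higher in 12 and lower in 5 of 17 tested (27 listed; median log2 fold change 0.25; 0.38 with the trend removed and 0.13 under listed totals), with log2 fold changes from -2.61 to 3.03, beside -0.39 to 0.89 for the 5 NF-kB genes themselves. The chemokine gene Cxcl5 rose 8.62-fold from a low level, from 17.5 ± 1.62 to 150.8 ± 19.9 (SD, n = 3), and the growth factor gene Csf1 1.19-fold (log2 0.25; 0.13 under listed totals), while the adhesion receptor gene Vcam1 fell to 0.427 of Control. The other 4 falls were Sele, Birc3, Birc2 and Tnip1, which include feedback genes of the pathway. Sele, at 41.0, 40.9 and 26.1 in Control and 4.0, 4.1 and 7.3 in siSirt6, passed the filter on low values through Control alone. Its direction was thus set by that filter, and it gives the lower end of the range (-2.61). Tnip1 went from -0.18 to -0.27 with the trend removed and -0.30 under listed totals. With the trend removed 10 of the 17 were higher and 5 lower.

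All 3 HIF genes fell. Epas1 (HIF-2 alpha; chromosome 17, 86753700 to 86833410), the oxygen-regulated subunit prominent in vascular cells, stood at 4239.7, 4323 and 4333 normalised counts in Control and at 2083, 2104 and 1972 after knockdown. It had the largest fall of the 59, to 0.478 of Control, from 4298 ± 51 to 2053 ± 71 (SD, n = 3), which on the log2 scale is -1.07 ± 0.032 SE (adjusted p = 6.85e-25), and -0.88 with the trend removed. Hif1a stood at 1604, 1597 and 1667 in Control against 1326, 1296 and 1374 in siSirt6 and fell to 0.821; Hif3a, which encodes an inhibitory relative, stood at 774.8, 739.0 and 740.7 in Control against 614.1, 677.3 and 621.3 in siSirt6 and fell to 0.848. Both falls were lost with the trend removed (log2 -0.06 and -0.01). The summed HIF level per kb went from 1240.1 ± 12.7 to 753.7 ± 8.06 (SD, n = 3), and the part of Hif1a in it from 27.7% ± 0.4 to 37.4% ± 1.51.

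HIF targets were mostly higher. Of 28 listed, 19 were tested, 15 rose and 4 fell, with a median log2 fold change of 0.52. The median was 0.31 with the trend removed and 0.40 under listed totals, with 15 higher and 4 lower, and 13 and 4. Among the rises, Car9 stood at 6.8, 15.6 and 16.4 in Control and at 27.7, 27.8 and 29.1 in siSirt6. It met the filter on low values only with siSirt6 libraries. The glycolytic genes Eno1 and Pgk1 rose 1.71-fold and 1.57-fold. The 4 falls were Vegfa, Adm, Bnip3l and P4ha2, of which Vegfa went from -0.18 to -0.30 and P4ha2 from -0.13 to -0.25 under listed totals. HIF proteins are controlled mainly by degradation, and protein levels were not measured. A link between these targets and the HIF mRNAs, of which only Epas1 stayed lower with the trend removed, was not tested.

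STAT genes lie side by side and differed in direction. Stat3, the main mediator of IL-6 family cytokines, stood at 3485, 3533 and 3552 normalised counts in Control and at 3807, 3605 and 3767 after knockdown. Its rise was the smallest of the 59 (1.06-fold, log2 0.08 ± 0.029 SE, adjusted p = 0.01) and its call was lost with TMM scaling, without siSirt6 replicate 1, with edgeR and DESeq2 on 5 libraries and with adjustment over all annotated genes; under listed totals it turned to -0.04, and with the trend removed it was 0.29. Stat5b stood at 686.9, 605.6 and 598.8 in Control against 343.1, 341.2 and 344.5 in siSirt6, a fall to 0.544 (log2 -0.87 ± 0.071 SE), with siSirt6 libraries within 4 counts of each other. Stat5a stood at 250.8, 264.8 and 262.7 in Control against 189.9, 160.8 and 199.8 in siSirt6, a fall to 0.707 (log2 -0.50 ± 0.1 SE). The 2 STAT5 genes carry growth hormone and cytokine signals; their shared part of the family's level per kb shrank as that of Stat3 went from 75.8% ± 0.93 to 84.6% ± 0.31 (SD, n = 3). Of 12 listed STAT targets 9 were tested, 5 rose and 4 fell (median log2 fold change 0.05; 0.17 with the trend removed and -0.06 under listed totals; 3 higher and 5 lower under listed totals); Timp1, Ccnd1 and Mcl1, named above, are in this list too.

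All 3 NFAT genes fell. Nfat5, which responds to osmotic stress, stood at 1491, 1494 and 1540.4 in Control against 992.8, 1114 and 1122 in siSirt6, a fall to 0.714 (log2 -0.49 ± 0.047 SE; -0.17 with the trend removed). Nfatc3, a calcium-dependent NFAT of arterial muscle, stood at 814.8, 918.1 and 917.5 in Control against 639.8, 714.4 and 617.1 in siSirt6, a fall to 0.744 (log2 -0.43; -0.16 with the trend removed). Nfatc1 stood at 287.8, 288.2 and 309.0 in Control against 222.5, 251.5 and 243.5 in siSirt6; its fall to 0.811 was lost with the trend removed (-0.18). All have long transcripts and low levels per kb, between 61.5 and 147.6 in Control. Only 3 of 5 listed NFAT targets were tested: Rcan2 fell to 0.787, while Ptgs2 and Il6 rose 1.49-fold and 2.01-fold. The median log2 fold change of these targets was 0.58 (0.80 with the trend removed and 0.47 under listed totals).

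Of the 4 ID genes, which are the whole family, Id3 rose and the others fell. Id3 stood at 8843, 8881 and 8709 normalised counts in Control and at 10759, 10769 and 10309 after knockdown, the highest level per kb of all 59 genes (6894 in Control). It rose 1.2-fold (log2 0.27 ± 0.022 SE), and was the only gene of the 59 called in the opposite direction with the trend removed (-0.08, adjusted p = 4.83e-04). Id4 stood at 574.7, 538.4 and 599.7 in Control against 358.0, 341.2 and 330.9 in siSirt6, a fall to 0.601 (log2 -0.73 ± 0.072 SE). Id1 stood at 4229, 4199 and 4202 in Control against 3720.0, 3746 and 3609 in siSirt6, a fall to 0.877 (log2 -0.19; -0.56 with the trend removed), and Id2 at 1810.0, 1756 and 1800.2 in Control against 1698, 1564 and 1635 in siSirt6, a fall to 0.913 (log2 -0.13; -0.27 with the trend removed). The direction of Id3 therefore depends on that removal, and the falls of Id1, Id2 and Id4 do not.

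ID genes are targets of BMP signalling, and their products bind E proteins. Of the BMP response genes and E protein genes listed, 6 of 9 were tested, 3 rose and 3 fell. The median log2 fold change was -0.02 (-0.04 with the trend removed and -0.14 under listed totals). The inhibitory SMAD gene Smad6 fell to 0.857 (log2 -0.22, and -0.34 under listed totals). The E protein genes Tcf4 and Tcf12 fell to 0.695 and 0.738, of which log2 -0.17 and -0.15 were left with the trend removed (from -0.52 and -0.44). The third E protein gene, Tcf3, rose (log2 0.26), as did Smad7 (0.24) and Atoh8 (0.19). Under listed totals these rises were 0.14, 0.12 and 0.07. With the trend removed Atoh8 was not called (0.07).

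Upstream regulators and bZIP partners outside the 59 were mostly lower. Of 32 listed, 13 were tested, 4 rose and 9 fell (median log2 fold change -0.21; -0.09 with the trend removed and -0.33 under listed totals). With the trend removed 2 were higher and 6 lower, and under listed totals 2 and 9. The acetyltransferase gene Ep300, a coactivator of AP-1, NF-kB and HIF, fell to 0.59 of Control (log2 -0.76; -0.48 with the trend removed), and Eif2ak3, which encodes the PERK kinase upstream of ATF4, to 0.686. Egln3, which encodes a HIF prolyl hydroxylase, rose 1.7-fold. Keap1, Vhl and Ikbkb were not analysed here.

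**Figure D5:**
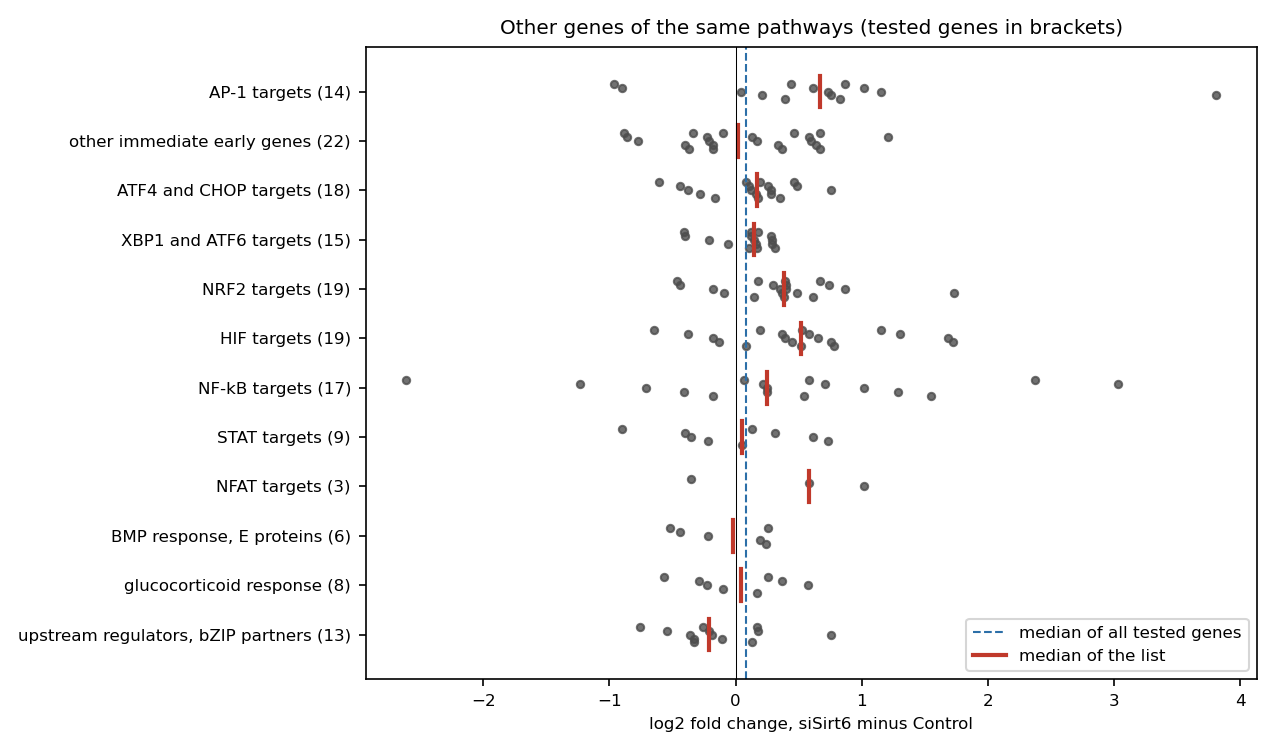
Log2 fold change (siSirt6 minus Control, x axis) of the tested genes of each pathway list (points), with the list's median (red) and the median of all tested genes (dashed line, 0.085). Medians run from -0.21 for upstream regulators to 0.67 for AP-1 targets, and every list but that of NFAT targets, with 3 genes, holds at least 2 genes on each side of 0.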

How the data were processed

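RNA sequencing of 6 samples (3 Control, 3 siSirt6) was used as deposited. Libraries were stranded mRNA, per the labels' protocols, and HTSeq, Cufflinks, HISAT2 and Trimmomatic stand in the submitters' processing notes beside the build mm10, with no version, role or order. Each deposited table gives a signal per gene; the authors' values came out as whole reads (100% within 0.001 reads) times 1 step per library, and no label or header says how the factors were set. Genes were fitted with limma 3.58.1 in R 4.3.3 on log2(value + 1), with a 2-sided moderated test, intensity trend and robust variance prior. The pseudocount understates the change of low genes. Of 7384 listed genes, 7179 reached 10 normalised counts in 3 or more libraries and were tested, with Benjamini-Hochberg adjustment over them at 0.05. Fold values are ratios of group means of the normalised counts. Count tests (edgeR 4.0.16, DESeq2 1.42.0) ran on recovered reads of 5 libraries, since the reads of siSirt6 replicate 1 did not pass an automatic check of the step. Chi-square per degree of freedom between replicates was 1.94 to 2.50, above counting noise, and no library was taken for a repeat. Lengths (longest transcript), GC content and positions came from GENCODE vM21 (GRCm38), found for 7332 of the 7384 identifiers and all 59 members. For the length and GC trend, natural splines on log2 length and GC content were fitted to each library's deviations from the gene means and subtracted. The fit was checked on simulated data in which most genes did not change and no length trend was put in. That setting differs from these data, so the check does not cover a gene list in which nearly all genes differ.

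The members, families and gene lists were chosen with earlier results of these data known. Named with a value in every library were, in each family, up to 4 members with the largest absolute log2 fold change and a mean of at least 50, and the most abundant per kb; from each list, the 3 tested genes with the smallest p. Some genes that these rules or an overlap would name are not reported here. No whole-library depth is given, so precision rests on the spread between 3 libraries.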

Additional observations from a re-analysis of the deposited data

How the results depend on the processing

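Of the 59 calls, 59 kept direction and call with pseudocounts of 0.5 and 5, with no filter, with a mean of at least 5 CPM and with the replicate block. Replicate numbers gave no pairing (same-numbered libraries' deviations correlated at -0.019, 0.027 and -0.001), and the replicate block gave 30 higher, 29 lower and 2 past 2-fold, as without it. Leaving out 1 library gave 29 to 30 higher, 28 to 29 lower and 2 to 3 past 2-fold; 3 passed 2-fold without siSirt6 replicate 2. Listed totals, which moved the median of all tested genes from 0.085 to -0.034, gave 20 higher and 29 lower (Stat3 reversed, -0.04); TMM gave 29 and 29, edgeR on 5 libraries 28 and 29, DESeq2 25 and 29, and adjustment over all 55536 annotated genes 27 and 28. Removing the length and GC trend left 24 higher, 24 lower and 1 past 2-fold (Cebpa, -1.02, while Ier3 and Epas1 were at 0.78 and -0.88), and 6 reversed: Atf5 (-0.01), Atf7 (0.09), Ddit3 (0.00), Id3 (-0.08), Ier3ip1 (-0.02) and Nfkbib (-0.01), of which Id3 was called. Among all tested genes the trend removal left 37.3% called higher and 36.8% lower. The shares of all tested genes called under listed totals are not given here. Sirt6 was lower and called under every setting named here. Group sizes of 3 and the unknown whole-library depth limit small changes most.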

Other observations

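Several of the 59 genes are neighbours in the genome (GRCm38). On chromosome 11, Stat5b, Stat5a and Stat3 lie within 100780731 to 100939540, with 8.6 kb between Stat5b and Stat5a and overlapping ends of Stat5a and Stat3; Stat5b and Stat5a fell (log2 -0.87 and -0.50) and Stat3 stood at 0.08. On chromosome 7, Cebpg and Cebpa, 62.7 kb apart, both fell (-0.31 and -0.94), Cebpg not so once the length and GC trend was removed. On chromosome 19, Fosl1 and Rela, 181.5 kb apart, both rose (0.69 and 0.19), as did Gadd45gip1 and Junb on chromosome 8, 139.0 kb apart (0.50 and 0.57). These pairs were picked by distance (under 200 kb) and were not tested against other neighbours.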
